A study of Homo sapiens with 14 samples.

Results

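LINC-PINT is a long intergenic noncoding RNA gene on the minus strand of chromosome 7, and its RNA was followed here across a ZC3H18 (Z18) allelic series in A375 cells, an established human melanoma line. The gene was chosen by results of these same libraries, so its levels are given as a description and carry no test. Its members were the 1 LINC-PINT entry among 28307 genes and 369 of 1278996 pairs of a transposable element (TE) copy and a transcript strand, namely every TE copy with signal that lay wholly inside the LINC-PINT span and was read from the LINC-PINT strand.

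PolyA-selected, stranded RNA-seq was available for 14 libraries of 5 groups, all of A375 origin. Bulk CRISPR cells (n = 3) were transiently transfected with a vector that edits Z18, selected with antibiotic and kept as a mixed population, and bulk control cells (n = 3) received the empty vector, which per the study's methods expresses Cas9 without a guide RNA. Single-cell clones were isolated by limiting dilution after the same kind of transfection and selection, and were heterozygous for a truncating Z18 mutation (trunc/+, n = 3), heterozygous for loss of function (-/+, n = 3) or wild type (WT, n = 2). Each clone is 1 cell line and 1 library, and the trunc/+ clones do not all carry the same mutation. Per the methods the bulk transfection was done in triplicate, all within 1 cell line, so p-values reflect only how far these libraries vary, in part perhaps for technical reasons.

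LINC-PINT was named for the p53-induced transcript of the mouse, and noncoding RNAs of this locus have been linked to the p53 response and to Polycomb repressive complex 2 (PRC2), which methylates histone H3. Z18 is a zinc-finger protein that connects the cap of nuclear RNA to the decay machinery, which removes unwanted polyadenylated and unstable transcripts. The MIR29A and MIR29B1 hairpins lie at the 3′ side of LINC-PINT on the same strand, and miR-29 is known to repress collagen and other matrix genes. Many long noncoding RNAs contain TE fragments, and MLT1F2 is the long terminal repeat of an old endogenous retrovirus of the MaLR group.

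The span of LINC-PINT depends on the annotation. In GENCODE release 44 (hg38) it runs over chr7:130791264-131110176, 318913 bases with 69 transcripts (ENSG00000231721.8), whereas the RefSeq entry behind the deposited gene values covers chr7:130877562-131109916, 232355 bases. The MLT1F2 copy of interest, at chr7:130872324-130872950, lies 4611 bases beyond the RefSeq 3′ end and inside the GENCODE span, so the GENCODE span was used to collect TE copies. It overlaps an annotated exon, and 5 GENCODE transcripts of LINC-PINT end inside it, between positions 130872363 and 130872367. Fragments over this copy therefore do not enter the deposited LINC-PINT value.

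The last 300 bases of the MLT1F2 copy are shown because these transcript ends fall in them (hg38, minus strand, chr7:130872324-130872623). Capitals mark AATAAA, the usual polyadenylation signal. It was the 1 match to AATAAA or ATTAAA on the RNA strand of the whole 627-base copy, and its last base lies 17 to 21 bases before the annotated transcript ends.
MLT1F2 copy: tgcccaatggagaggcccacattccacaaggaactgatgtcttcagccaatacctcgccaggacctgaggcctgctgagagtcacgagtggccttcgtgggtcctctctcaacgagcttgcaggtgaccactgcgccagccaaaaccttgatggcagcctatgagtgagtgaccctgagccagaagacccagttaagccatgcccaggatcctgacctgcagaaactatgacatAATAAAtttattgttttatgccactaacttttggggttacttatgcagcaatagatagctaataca

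Between the MLT1F2 copy and the RefSeq 3′ end lie the hairpins MIR29A (chr7:130876747-130876810) and MIR29B1 (chr7:130877459-130877539). The mature 3p miRNAs from RefSeq (GRCh38.p14) are shown because their hairpins lie beyond the RefSeq 3′ end, where the summed TE signal of the clones differed most. The MER2 copy between the hairpins did not share this difference, since the clone groups overlapped there. Capitals mark the seed (bases 2 to 8), which both share.
hsa-miR-29a-3p: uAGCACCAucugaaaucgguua
hsa-miR-29b-3p: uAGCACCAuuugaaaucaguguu

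RefSeq gives LINC-PINT an internal start at position 130913310, beside starts at 131107030, 131109916 and 131109925. The internal promoter and the main promoter (start 131109916) are shown because TE signal differed on either side of the internal start. Each window holds 250 bases before and 50 after the start (RefSeq, GRCh38.p14, minus strand). Capitals mark CACGTG, an E-box, in the internal promoter, and GGGCGG or its reverse complement CCGCCC, a GC box, in the main one.
Internal promoter, chr7:130913261-130913560: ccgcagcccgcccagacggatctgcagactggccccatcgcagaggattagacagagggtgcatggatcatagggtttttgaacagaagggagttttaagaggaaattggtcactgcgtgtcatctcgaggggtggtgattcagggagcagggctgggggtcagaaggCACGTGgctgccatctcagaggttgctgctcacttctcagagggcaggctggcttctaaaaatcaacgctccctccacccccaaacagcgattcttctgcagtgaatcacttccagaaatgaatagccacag
Main promoter, chr7:131109867-131110166: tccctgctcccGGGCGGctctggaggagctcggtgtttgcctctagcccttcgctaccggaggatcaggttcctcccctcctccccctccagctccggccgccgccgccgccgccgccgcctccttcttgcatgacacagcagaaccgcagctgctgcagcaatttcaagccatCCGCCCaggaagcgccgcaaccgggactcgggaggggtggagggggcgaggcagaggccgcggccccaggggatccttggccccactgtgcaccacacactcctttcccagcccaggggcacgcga

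On both strands, 7.26% of 35116 RefSeq promoter windows of this length hold the E-box, 45.0% hold the GC box and 11.5% hold TATAAA, the TATA box. Among the 4 LINC-PINT windows, the internal one holds the E-box, all hold the GC box and none holds the TATA box. These matches describe the letters only. MKLN1, a gene for a muskelin protein on the plus strand, starts at position 131110096 and so lies head to head with the main LINC-PINT start.

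The libraries held 15615675 to 33018360 aligned fragments, of which 6.92% to 10.7% were assigned to TE copies, and replicate 3 of the bulk controls had both the fewest fragments and the highest TE share. The Z18 transcript had 10.4, 11.9 and 12.8 FPKM (fragments per kilobase of transcript, scaled to library size) in bulk CRISPR, against 38.1, 13.9 and 48.7 FPKM in bulk control, so the library labelled bulk control replicate 2 lay near the edited cells. It had 8.70 to 14.3 FPKM in trunc/+, 16.1 to 17.1 FPKM in -/+ and 22.0 and 23.5 FPKM in WT. Of 12 melanoma markers, 8 reached 1 FPKM in every group, while MLANA and TYR, markers of pigmented melanocytes, were listed at 0 throughout. Among markers of other cell types, PTPRC, found on leukocytes, was listed at 0 in all bulk libraries, and LYZ, the gene of lysozyme, made up the whole haematopoietic sum there. That sum was 1.99 to 2.72 FPKM in bulk CRISPR, 0.770 to 2.39 FPKM in bulk control, 3.25 to 4.25 FPKM in trunc/+, 2.55 to 5.07 FPKM in -/+ and 0.575 and 7.54 FPKM in WT. The sum of 4 epithelial markers, mostly KRT14, a keratin, was 3.03 to 3.37 FPKM in bulk CRISPR, 1.49 to 3.28 FPKM in bulk control, 7.32 to 13.99 FPKM in trunc/+, 6.17 to 17.2 FPKM in -/+ and 1.09 and 15.5 FPKM in WT. The summed level of 4 fibroblast markers was 8.97 to 10.2 FPKM in bulk CRISPR and 2.79 to 3.77 FPKM in bulk control. It was 7.63 to 17.1 FPKM in trunc/+, 2.98 to 10.1 FPKM in -/+ and 5.56 and 8.21 FPKM in WT. The part of these markers in the LINC-PINT results was not tested.

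LINC-PINT RNA was highest in bulk CRISPR cells and lowest in the -/+ and WT clones. It measured 9.31, 10.0 and 8.25 FPKM in bulk CRISPR, against 6.94, 8.02 and 5.16 FPKM in bulk control. All 3 edited populations lay above all 3 controls, by a small margin. Among the clones, LINC-PINT had 6.45, 6.75 and 6.22 FPKM in trunc/+, 3.75, 1.97 and 3.82 FPKM in -/+, and 2.84 and 4.02 FPKM in WT. Every trunc/+ clone lay above every -/+ and WT clone, whereas -/+ and WT overlapped. In these polyA-selected libraries of whole populations, fewer cells expressing the gene and less RNA per cell cannot be told apart.

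**Figure D1:**
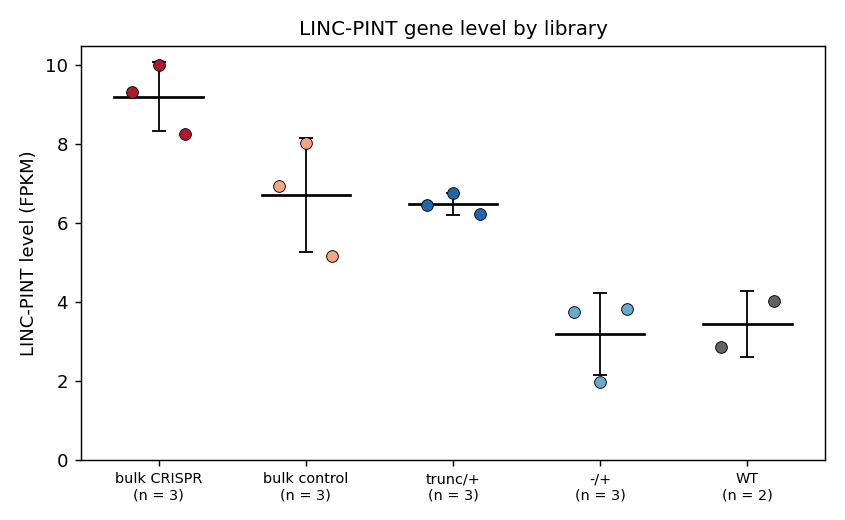
LINC-PINT level in FPKM (y axis) in each library (points) of the 5 groups, with the group mean (line) ± SD (bar). The bulk CRISPR libraries lie between 8.25 and 10.0 FPKM and the trunc/+ clones between 6.22 and 6.75 FPKM, above the -/+ and WT clones at 1.97 to 4.02 FPKM.

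In order of group means, LINC-PINT stood at 9.19 ± 0.879 FPKM in bulk CRISPR, 6.71 ± 1.44 FPKM in bulk control, 6.47 ± 0.269 FPKM in trunc/+, 3.43 ± 0.835 FPKM in WT and 3.18 ± 1.05 FPKM in -/+ (SD, n = 3, and n = 2 for WT). Bulk control and trunc/+ were neighbours in this order that did not differ beyond their spread, and so were WT and -/+. The bulk cells and the clones were made by different routes, so an order across them is no comparison of genotypes. Relative to other genes with at least 1 FPKM, LINC-PINT ranked at the 44.6th to 49.8th percentile in bulk CRISPR and the 34.9th to 49.6th in bulk control. It ranked at the 36.5th to 37.7th percentile in trunc/+, the 10.5th to 23.9th in -/+ and between percentiles 17.9 and 25.1 in WT.

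As log2(FPKM + 1), a scale that compresses differences between low values, LINC-PINT differed by 0.42 (SE 0.24) between bulk CRISPR and bulk control. The median of all 12114 genes tested was shifted by 0.18 in the same direction, and quantile normalization, which brought that median to 0.03, left LINC-PINT at 0.19. Without bulk control replicate 3 the value was 0.26. In the clones LINC-PINT differed by 0.77 (SE 0.25) for trunc/+ over WT, by 0.87 (SE 0.22) for trunc/+ over -/+ and by -0.11 (SE 0.25) for -/+ over WT, with medians over all 12904 genes between -0.02 and -0.0014. These contrasts share the WT, -/+ and trunc/+ libraries with each other. The sign of the last was not stable, being 0.09 without WT replicate 2 and 0.12 without -/+ replicate 2.

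The MLT1F2 copy was the TE copy with most signal in the LINC-PINT span, with 1148 estimated fragments over the 14 libraries, of which 96.3% mapped uniquely. CPM (counts scaled to 1000000 aligned fragments) were 3.45, 2.90 and 3.96 in bulk CRISPR, against 6.86, 9.55 and 5.06 in bulk control. Here the edited populations were all below the controls, the opposite of the gene value. The copy had 4.88, 2.35 and 3.26 CPM in trunc/+, 0.282, 0.534 and 0.963 CPM in -/+, and 0.541 and 0.651 CPM in WT. The 3 trunc/+ clones lay above all 5 other clones, in which the copy rested on only 7 to 23 fragments per library.

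**Figure D2:**
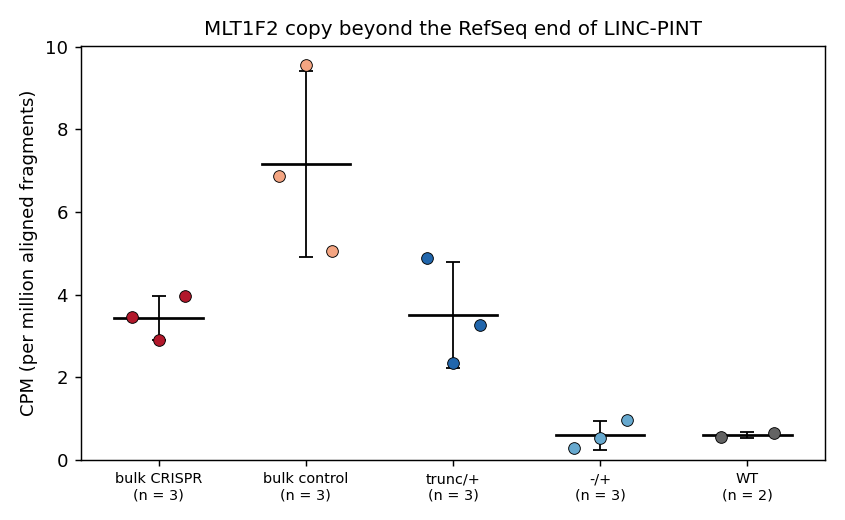
CPM of the MLT1F2 copy (y axis) in each library (points) of the 5 groups, with the group mean (line) ± SD (bar). Bulk CRISPR libraries (2.90 to 3.96 CPM) lie below bulk controls (5.06 to 9.55 CPM), and trunc/+ clones (2.35 to 4.88 CPM) lie above the -/+ and WT clones (0.282 to 0.963 CPM).

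In the fit over all TE copies, the MLT1F2 copy had a log2 fold change of -1.06 (SE 0.47) for bulk CRISPR over bulk control, 2.54 (SE 0.58) for trunc/+ over WT, 2.55 (SE 0.50) for trunc/+ over -/+ and -0.01 (SE 0.56) for -/+ over WT. The median of all copies tested in the bulk comparison was 0.34, and TMM scaling, which brought that median to 0.04, gave -1.36 for the copy. Set against the gene value of the same library, the copy gave 0.380 ± 0.0956 CPM per FPKM in bulk CRISPR and 1.05 ± 0.119 CPM per FPKM in bulk control. The ratio was 0.543 ± 0.205 in trunc/+, 0.199 ± 0.108 in -/+ and 0.176 ± 0.0202 in WT (SD, n = 3, and n = 2 for WT). By these means the ratio of the 3′ copy to the RefSeq part of the gene was highest in bulk control and lowest in WT and -/+. Those clone groups overlapped, and -/+ replicate 1 had the lowest single value, 0.0752. The annotated transcripts that end in the copy start between positions 130884417 and 130941602, none at the main start. The ratio therefore need not compare parts of the same RNA.

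All 369 TE copies together gave a second readout of the LINC-PINT strand. They comprised 169 SINE, 119 LINE, 41 DNA and 39 LTR copies and 1 of another class. Of them, 34 overlapped an annotated LINC-PINT exon, 178 pointed along the LINC-PINT strand and 191 against it. Most were sparse, with a median of 7 fragments per copy over all libraries, 102 copies seen in 1 library and 6 seen in all 14. Their sum was 48.3, 54.0 and 46.4 CPM in bulk CRISPR, against 48.0, 40.1 and 30.6 CPM in bulk control. The bulk groups overlapped. The sum was 42.9, 32.5 and 33.9 CPM in trunc/+, 8.74, 11.7 and 15.1 CPM in -/+, and 6.03 and 15.7 CPM in WT, so that trunc/+ stood clear of the other clones.

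By group means, the summed TE signal was 3.36 times as high in trunc/+ as in WT, 3.07 times as high in trunc/+ as in -/+, 1.09 times as high in -/+ as in WT and 1.25 times as high in bulk CRISPR as in bulk control. Without the MLT1F2 copy these ratios were 3.21, 2.92, 1.10 and 1.42. On the log2 scale the bulk ratio was 0.33, or 0.51 without the MLT1F2 copy. The median log2 fold change over all TE copies tested in the bulk comparison was 0.34. Without WT replicate 2 the log2 ratio of trunc/+ over WT was 2.59, and without WT replicate 1 it was 1.22, against 1.75 with both WT clones. For -/+ over WT, the log2 ratio of 0.13 became 0.98 without WT replicate 2 and -0.40 without WT replicate 1. The sum over the 335 copies outside annotated exons was 25.3 ± 2.43 CPM in trunc/+, 9.49 ± 2.41 CPM in -/+ and 8.89 ± 5.73 CPM in WT. Over the 34 exonic copies it was 11.1 ± 3.44 CPM in trunc/+, 2.37 ± 0.830 CPM in -/+ and 1.96 ± 1.09 CPM in WT. In the bulk cells the exonic copies had 14.6 ± 0.775 CPM in CRISPR and 15.4 ± 3.26 CPM in control.

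The signal was not spread evenly along LINC-PINT. The span was divided at the internal start and at the RefSeq 3′ end, 197 kb and 232 kb downstream of the main start, a division chosen after the values were seen. Upstream of the internal start, 223 copies summed to 7.26, 8.10 and 4.74 CPM in bulk CRISPR, against 3.75, 8.31 and 4.87 CPM in bulk control. The same stretch had 3.27, 7.72 and 7.43 CPM in trunc/+, 5.80, 3.89 and 5.19 CPM in -/+, and 2.85 and 5.12 CPM in WT. All 5 groups overlapped in this 5′ part of LINC-PINT.

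From the internal start to the RefSeq 3′ end, 38 copies summed to 20.7, 23.8 and 19.5 CPM in bulk CRISPR, against 14.4, 10.4 and 9.35 CPM in bulk control. Bulk CRISPR lay above bulk control in every library, by 1.87 times on average. As a log2 ratio this was 0.91, beside a median log2 fold change of 0.34 over all TE copies tested in the bulk comparison. The clones had 6.75, 12.2 and 3.34 CPM in trunc/+, 0.886, 3.63 and 5.23 CPM in -/+, and 0.650 and 5.27 CPM in WT. The clone groups overlapped here.

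Beyond the RefSeq 3′ end, where the miR-29 hairpins and the MLT1F2 copy lie, 108 copies summed to 20.4, 22.1 and 22.1 CPM in bulk CRISPR, against 29.8, 21.4 and 16.4 CPM in bulk control. The bulk groups overlapped. The sum was 32.8, 12.5 and 23.2 CPM in trunc/+, 2.05, 4.22 and 4.69 CPM in -/+, and 2.53 and 5.27 CPM in WT. Each trunc/+ clone lay above each -/+ and WT clone, with means 5.85 times that of WT and 6.25 times that of -/+. The trunc/+ mean was 9.03 times that of WT without WT replicate 2 and 4.33 times without WT replicate 1.

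**Figure D3:**
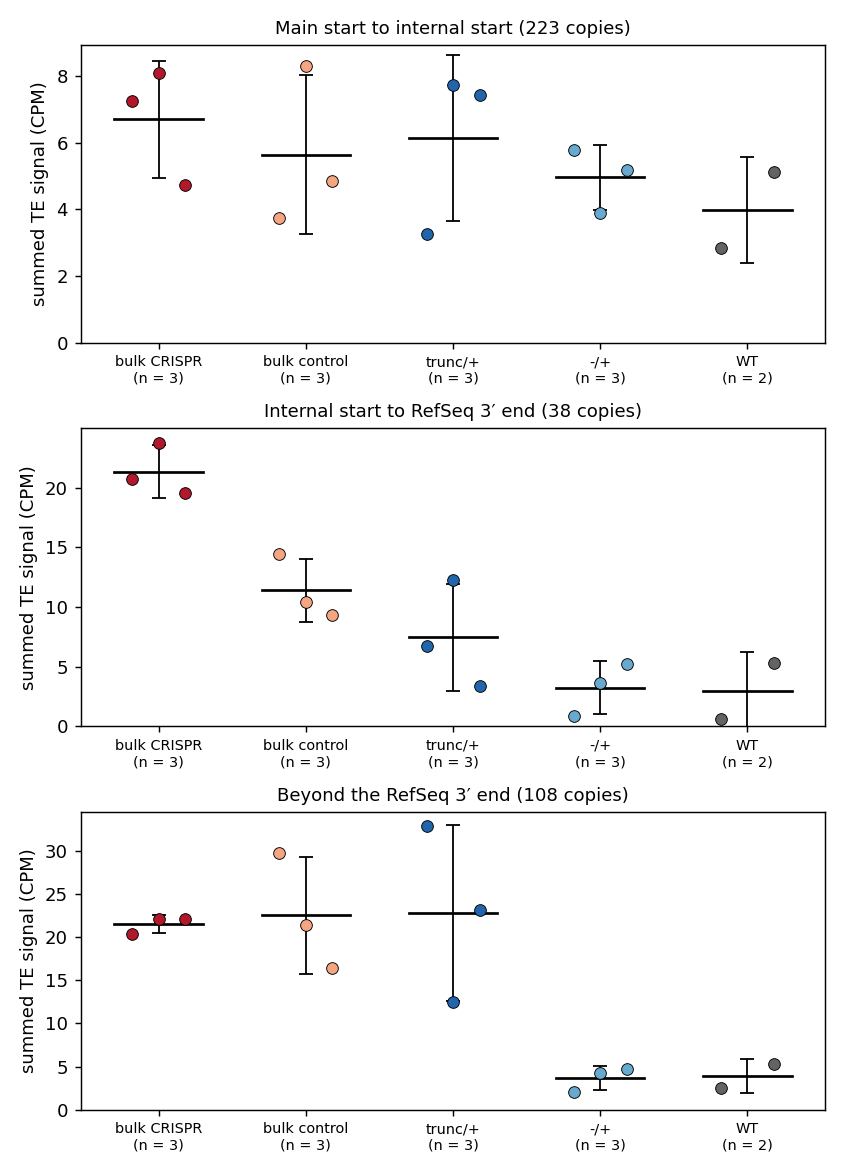
Summed CPM of TE copies on the LINC-PINT strand (y axis) in each library (points), with group mean (line) ± SD (bar, drawn only above 0), for 3 stretches of the gene in 5′ to 3′ order. The groups overlap upstream of the internal start, bulk CRISPR is highest between the internal start and the RefSeq 3′ end (19.5 to 23.8 CPM), and trunc/+ (12.5 to 32.8 CPM) lies above -/+ and WT (2.05 to 5.27 CPM) beyond it.

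As a share of the TE signal of LINC-PINT, the stretch upstream of the internal start held 10.2% to 15.0% in bulk CRISPR, 7.82% to 20.7% in bulk control, 7.63% to 23.8% in trunc/+, 33.1% to 66.4% in -/+ and 32.7% to 47.3% in WT. The stretch beyond the RefSeq 3′ end held 41.0% to 47.7% in bulk CRISPR, against 53.3% to 62.2% in bulk control. It held 38.5% to 76.6% in trunc/+, 23.5% to 35.9% in -/+ and 33.7% to 41.9% in WT. In bins of 10 kb, signal stayed low over the first 150 kb of the gene in every group. The bin from 150 kb had 1.13 ± 0.26 CPM in bulk CRISPR, 1.80 ± 0.36 CPM in bulk control, 2.05 ± 0.98 CPM in trunc/+, 1.63 ± 0.04 CPM in -/+ and 1.62 ± 0.51 CPM in WT, while the bin from 200 kb had 14.8 ± 1.70 CPM in bulk CRISPR, 6.73 ± 3.10 CPM in bulk control, 4.09 ± 4.67 CPM in trunc/+, 2.37 ± 1.88 CPM in -/+ and 1.97 ± 2.69 CPM in WT. The clone groups overlapped in that bin.

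**Figure D4:**
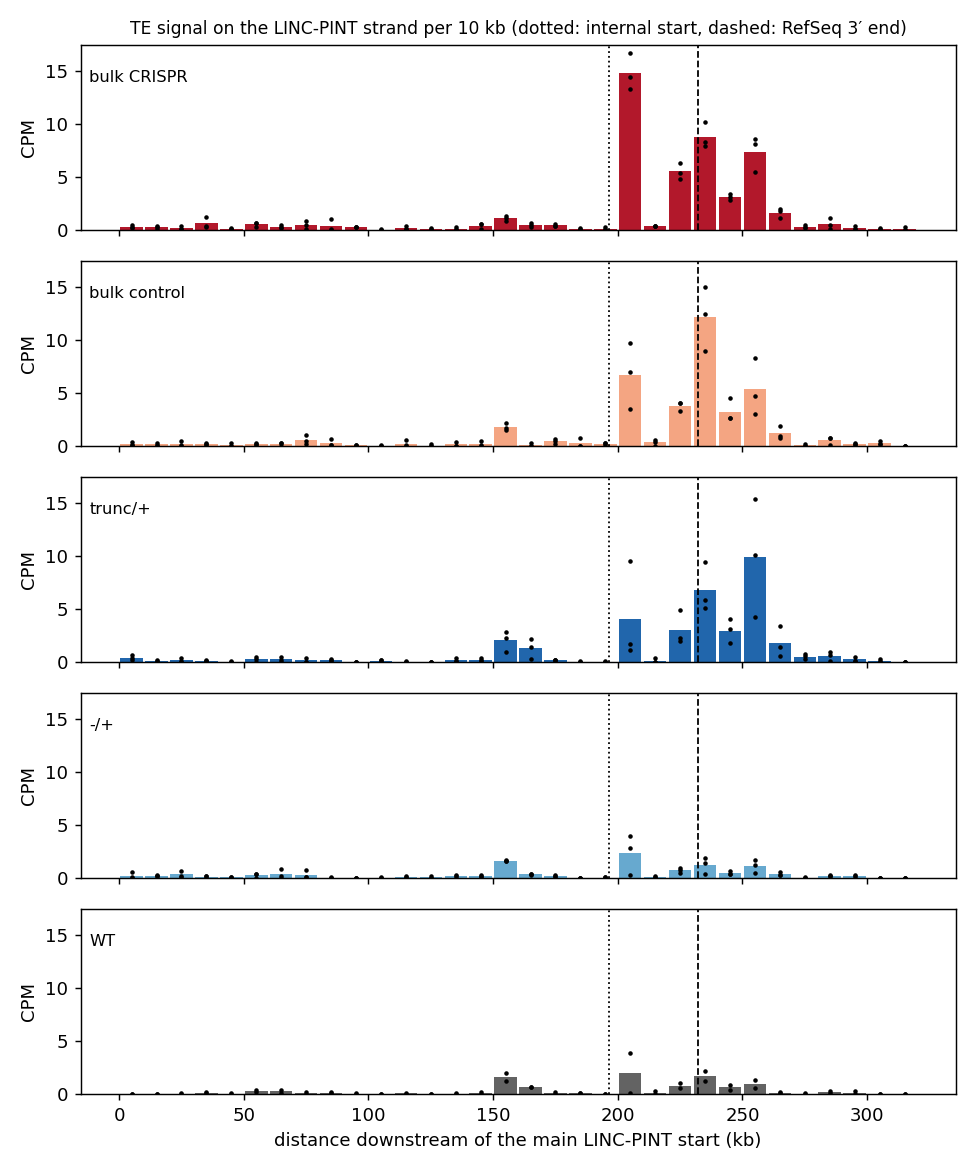
Summed CPM of TE copies on the LINC-PINT strand (y axis) in 10 kb bins by distance from the main start (x axis, kb), as group means (bars) and single libraries (points). Past the internal start (dotted line) signal is higher than just before it in every group, most in bulk CRISPR (14.8 CPM in the bin from 200 kb), and past the RefSeq 3′ end (dashed line) the means of both bulk groups and trunc/+ lie above those of -/+ and WT up to 270 kb.

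Besides the MLT1F2 copy, the 10 copies of highest mean CPM lay on both sides of the RefSeq 3′ end. Beyond it, the L1MA4 copy at chr7:130856593-130859911, a LINE fragment outside annotated exons, had 1.85, 1.44 and 1.37 CPM in bulk CRISPR, against 1.65, 0.432 and 1.92 CPM in bulk control. It had 2.94, 1.65 and 2.88 CPM in trunc/+, 0.0805, 0.160 and 0.712 CPM in -/+, and 0.217 and 0.248 CPM in WT, with trunc/+ above all other clones (log2 fold change 3.39, SE 0.80, over WT). A second L1MA4 copy, exonic, at chr7:130863539-130865058, had 0.837, 0.862 and 1.35 CPM in trunc/+, 0, 0.107 and 0.251 CPM in -/+, and 0 and 0.217 CPM in WT. The exonic AluJb copy next to it (chr7:130865070-130865364) had the same order, with 1.48, 0.503 and 0.747 CPM in trunc/+ and at most 0.167 CPM in any -/+ or WT clone. In the -/+ and WT clones these copies rested on at most 17 fragments per library, and the exonic L1MA4 and AluJb copies on 0 in some.

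The 2 L1MB5 copies farther downstream (chr7:130849601-130850110 and chr7:130850711-130850934) were less uniform. In trunc/+ the first had 1.70, 0.359 and 0.960 CPM and the second 1.63, 0.144 and 1.21 CPM. Replicate 2 of trunc/+ overlapped the -/+ clones in both, since the first reached 0.480 CPM and the second 0.213 CPM there. The MER2 copy between the miR-29 hairpins (chr7:130876990-130877293), a DNA transposon fragment, differed from these neighbours: it had 1.32, 0.929 and 1.56 CPM in bulk CRISPR, against 1.87, 1.35 and 0.0640 CPM in bulk control. It had only 0.0303, 0.610 and 0.0711 CPM in trunc/+, overlapping -/+ (0 to 0.107 CPM) and WT (0.108 and 0.124 CPM), and did not pass the filter in the clones.

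Between the internal start and the RefSeq 3′ end, the 4 named copies lay close together. The L1M5 copy (chr7:130907694-130907990) had 1.71, 1.94 and 1.37 CPM in bulk CRISPR, against 0.562, 0.216 and 0 CPM in bulk control, with no overlap. The control values rested on 15, 4 and 0 fragments. Its log2 fold change of 2.58 (SE 0.86) was the largest among the 33 LINC-PINT copies tested in the bulk cells, beside a median of 0.34 over all copies. The AluJr copy (chr7:130906669-130906975) had 3.03, 2.92 and 2.81 CPM in bulk CRISPR, against 1.57, 3.83 and 1.41 CPM in bulk control, which overlapped, and at most 0.574 CPM in any clone. The AluSq copy (chr7:130908392-130908693) and the L1MA9 copy (chr7:130908796-130909102) also overlapped between the bulk groups. In this stretch the clones varied within groups, as the L1M5 copy shows with 0.0909, 1.15 and 0.142 CPM in trunc/+, 0, 0.534 and 0.502 CPM in -/+, and 0 and 0.744 CPM in WT.

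**Figure D5:**
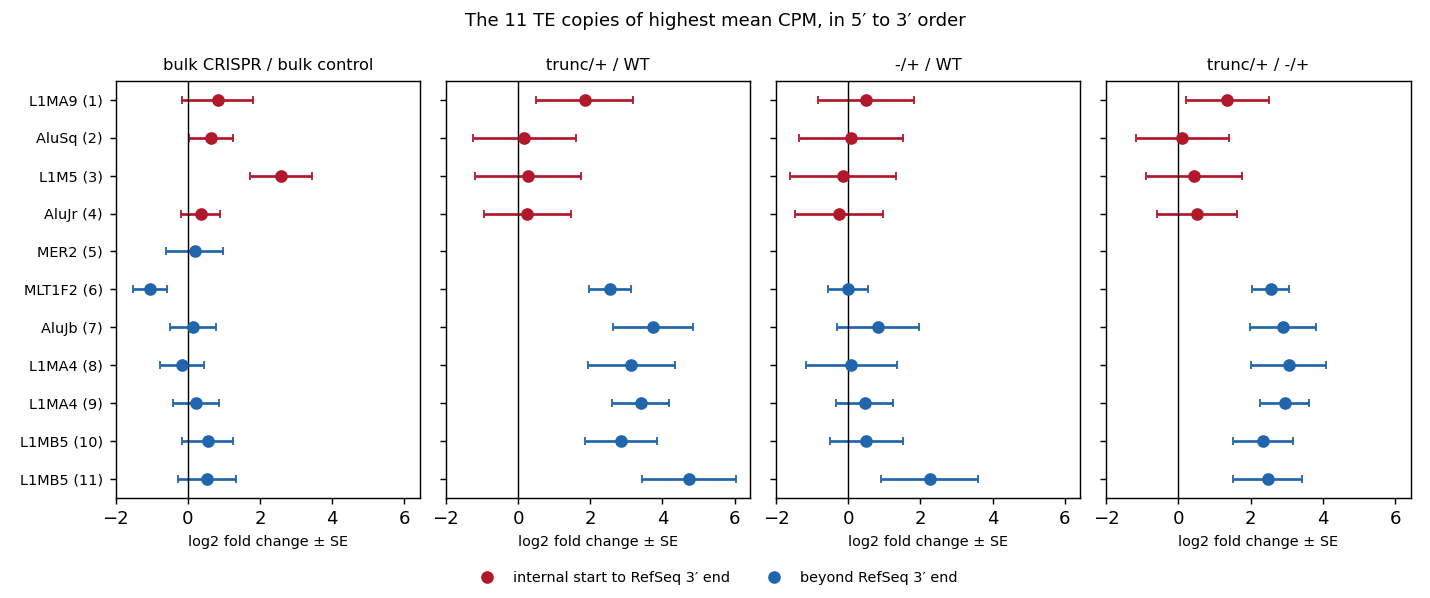
Log2 fold change ± SE (x axis) of the 11 TE copies with the highest mean CPM (rows, 5′ to 3′) in 4 comparisons (panels), with copies beyond the RefSeq 3′ end in blue and those before it in red. The blue copies tested lie between 2.54 and 4.73 for trunc/+ over WT, the MLT1F2 copy lies at -1.06 for bulk CRISPR over bulk control, and MER2 was tested in the bulk cells only.

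Across the 33 LINC-PINT copies that passed the filter in the bulk cells, 25 had a positive and 8 a negative log2 fold change, with a median of 0.45 beside 0.34 over all copies. In the clones 30 copies passed, with 29 positive for trunc/+ over WT (median 2.75, against 0.06 over all copies), 29 positive for trunc/+ over -/+ (median 2.67, against -0.04) and 18 positive for -/+ over WT (median 0.40, against 0.10). Copies that passed only through the group in which they were high had to differ, so these counts describe the copies that passed and not all 369. At an adjusted p under 0.05 (edgeR quasi-likelihood, Benjamini-Hochberg over all copies), 0 LINC-PINT copies were called in bulk CRISPR over bulk control, where 0% of 24315 copies were called. None was called for trunc/+ over WT (0% of 40643 copies), for -/+ over WT (0%) or for trunc/+ over -/+ (0%). At an unadjusted p under 0.05 the members counted 6, 13, 1 and 16 in that order of comparisons, among 2862, 1698, 1042 and 1593 copies in all, and nothing is read from these counts. DESeq2 called 389 of 24315 copies in the bulk cells and, in the same order, 8, 0 and 4 of 40643 in the clones. Of these last, 1 lay in LINC-PINT. It is given as a count only, since the gene was chosen by results of these libraries. Without bulk control replicate 1, 871 of 33320 copies were called in the bulk comparison, 2 of them in LINC-PINT, and nothing is read from this count either.

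No gene near LINC-PINT was called in the main fits. Of 18 other genes within 500 kb of the span, 8 were tested in the bulk cells and 8 in the clones, and 0 passed an adjusted p under 0.05 (limma, Benjamini-Hochberg over all genes) in any of the 4 comparisons. The share called over all genes was 0.347% in bulk CRISPR over bulk control, 0.00775% in trunc/+ over WT, 0.00775% in -/+ over WT and 0% in trunc/+ over -/+, where 810 genes had an unadjusted p under 0.05. MKLN1, which starts head to head with LINC-PINT, had 5.96, 7.14 and 6.49 FPKM in trunc/+, 8.56, 7.24 and 6.99 FPKM in -/+, and 7.60 and 7.73 FPKM in WT. Its log2 fold change was -0.20 (SE 0.15) for trunc/+ over WT (limma adjusted p = 0.758), and 0.47 (SE 0.27) for bulk CRISPR over bulk control (limma adjusted p = 0.342).

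At an unadjusted p under 0.05, which 20.9% of all genes met in bulk CRISPR over bulk control, 7.59% in trunc/+ over WT, 1.82% in -/+ over WT and 6.28% in trunc/+ over -/+, 2 of the 8 neighbours tested in the bulk cells were counted and 0 in the clones. MEST, an imprinted gene of the hydrolase family, had 2.57, 2.38 and 2.44 FPKM in bulk CRISPR, against 1.39, 0.477 and 0.911 FPKM in bulk control (log2 fold change 0.87, SE 0.23, limma adjusted p = 0.133). CPA4, a carboxypeptidase, had 23.8, 27.3 and 30.2 FPKM in bulk CRISPR, against 88.8, 44.3 and 90.9 FPKM in bulk control (log2 fold change -1.37, SE 0.30, limma adjusted p = 0.105). With a replicate block CPA4 was called (limma adjusted p = 0.0285), among 220 genes in all. Without bulk control replicate 1 MEST was called (limma adjusted p = 0.0311), among 1327 of 11904 genes. The other neighbours tested in the bulk cells, CEP41, COPG2, KLF14, MIR29A, MKLN1 and PODXL, had log2 fold changes between -0.12 and 0.47. In the clones MEST and CPA4 varied widely within groups, with 0.0248 to 4.63 FPKM of MEST and 1.98 to 50.5 FPKM of CPA4 in trunc/+, while CEP41, COPG2, KLF14, MKLN1, MKLN1-AS and PODXL had values between -0.37 and 0.45 over the 3 comparisons. The MIR29A hairpin entry reached at most 2.50 FPKM and was 0 in all trunc/+ clones, and MIR29B1 was listed at 0 everywhere, but polyA-selected libraries do not measure mature miRNAs.

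Gene lists linked to LINC-PINT gave 0 calls in any of the 4 comparisons in the main fits (limma). Counts at an unadjusted p under 0.05 follow for bulk CRISPR over bulk control and trunc/+ over WT. In -/+ over WT, 1 of 29 p53 targets was higher at that p and 0 genes of the other lists named, beside 1.82% of all genes. In trunc/+ over -/+, 1 of 29 p53 targets and 1 of 11 PRC2 genes were lower. There 1 of 15 miR-29 targets was higher and 0 other long noncoding RNAs counted, beside 6.28% of all genes. Of 30 p53 targets, 29 were tested; in bulk CRISPR 10 had an unadjusted p under 0.05, all of them higher (of all genes, 20.9% met this p and 14% were also higher), with a list median of 0.51 beside 0.18 over all genes. CDKN1A, the p53-induced inhibitor of the cell cycle, had 400, 574 and 423 FPKM in bulk CRISPR, against 318, 232 and 112 FPKM in bulk control (log2 fold change 1.18, SE 0.38, limma adjusted p = 0.176). MDM2, which targets p53 for degradation, had 29.8, 44.7 and 32.2 FPKM in bulk CRISPR, against 26.1, 23.0 and 18.8 FPKM in bulk control (log2 fold change 0.62, SE 0.24, limma adjusted p = 0.209). The edited populations lay above the controls for both genes, but limma called neither of them. How many of all genes separated in this way was not counted, and a link to LINC-PINT was not tested. In trunc/+ over WT the p53 list had a median of 0.08, with 1 gene, higher, at an unadjusted p under 0.05 (7.59% of all genes), and CDKN1A had 118, 120 and 58.7 FPKM in trunc/+, against 84.8 and 47.3 FPKM in WT, which overlap.

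Of 11 PRC2 genes, all tested, the median was -0.02 in bulk CRISPR over bulk control and -0.09 in trunc/+ over WT, beside 0.18 and -0.02 over all genes. At an unadjusted p under 0.05 the first comparison had 2 PRC2 genes higher and 1 lower, beside 20.9% of all genes, and the second 1 lower, EED, beside 7.59%. EZH2, its methyltransferase, had 30.2, 22.8 and 29.7 FPKM in trunc/+, against 33.6 and 33.1 FPKM in WT (log2 fold change -0.28, SE 0.16, limma adjusted p = 0.703). SUZ12, a core subunit, had 26.8, 31.3 and 27.0 FPKM in trunc/+, against 29.6 and 27.6 FPKM in WT (log2 fold change -0.02, SE 0.13, limma adjusted p = 0.987). Of 21 miR-29 targets, 12 were tested in the bulk cells with a median of 0.50 beside 0.18 over all genes, 4 being higher at an unadjusted p under 0.05 beside 14% of all genes, and 15 in the clones with a median of 0.11 and 0 at an unadjusted p under 0.05 for trunc/+ over WT. Of 25 other long noncoding RNAs, 17 were tested in the bulk cells (median 0.28 beside 0.18 over all genes, with 4 at an unadjusted p under 0.05 beside 20.9% of all genes, 1 higher and 3 lower) and 16 in the clones (median -0.13, 1 higher and 1 lower, for trunc/+ over WT, beside 7.59% of all genes). Without bulk control replicate 1, 1327 of 11904 genes (11.1%) were called in the bulk comparison rather than 42, and 15 of 94 listed or neighbouring genes (16.0%) were among them, 13 higher and 2 lower in bulk CRISPR.

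The 5 genes whose log2(FPKM + 1) followed LINC-PINT most closely over the 14 libraries, out of 12253, were RRAGB (Pearson r = 0.92, Spearman rho = 0.91), ACP5 (0.91 and 0.86), VPS28 (0.90 and 0.92), SCX (0.90 and 0.92) and H2BC21 (0.88 and 0.89). RRAGB encodes a Rag GTPase, ACP5 an acid phosphatase, VPS28 an ESCRT-I subunit, SCX the transcription factor scleraxis and H2BC21 a histone H2B. The libraries fall into bulk cells and clones, which part of each value reflects: within the 6 bulk libraries r was 0.53 to 0.92 and within the 8 clones 0.86 to 0.92 for these genes. They are named as a description of likeness only.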

How the data were processed

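The deposited TE files hold, for each TE copy and transcript strand, estimated counts of fragments that the authors obtained with SQuIRE on hg38, where multi-mapping fragments are shared out by expectation maximization, together with the deposited count of uniquely mapped fragments and of aligned fragments. The deposited RepeatMasker divergence was read but not reported. The deposited gene files hold FPKM, TPM and coverage (a signal) per RefSeq gene, computed by the authors with StringTie, values from which the depth per gene cannot be read. Reads had been trimmed with cutadapt 4.6 per the submitters' processing notes; the versions of SQuIRE and of its StringTie step for these files are not given in the sources used here. No per-sample column lacked a sample (0 such columns).

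FPKM were summed per symbol and analysed as log2(FPKM + 1) with limma 3.58.1 (trend), keeping genes with at least 1 FPKM in 3 bulk or 2 clone libraries. Estimated counts were rounded and analysed with edgeR 4.0.16 (quasi-likelihood, R 4.3.3; filter minimum count 10; library size the aligned fragments). Bulk libraries were fitted apart from the clones, and the 3 clone groups shared 1 estimate of spread. CPM are estimated counts per 1000000 aligned fragments. TE counts of a single copy carry counting error from few fragments. GENCODE release 44 gave spans and exons; of 25937 gene names shared with the files, 98.8% matched in strand and overlapped in position. Scripts were tested on simulated data.

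Groups came from the genotype labels. The text names LINC-PINT, its tested neighbours within 500 kb, CDKN1A, MDM2, EZH2 and SUZ12, up to 5 called members of each list, the MLT1F2 copy with the 10 other copies of highest mean CPM, and the 5 genes most like LINC-PINT. Beside these, EED, LYZ, KRT14, PTPRC and LINC00513 were named after their values were seen. Members and lists were chosen with earlier results of these data known. Lists of PAF1 complex genes and of haematopoietic and epithelial markers were also examined, with 6, 1 and 1 genes tested in each comparison. In the main fits they gave 0 calls with limma and 0 genes at an unadjusted p under 0.05. A list with 1 gene tested cannot show whether a cell type differed. Fibroblast and melanoma markers gave 0 calls in the main fits too. At that unadjusted p, 2 of 3 fibroblast and 1 of 8 melanoma markers tested were higher in bulk CRISPR, beside 14% of all genes. In trunc/+ over WT, 1 of 8 melanoma markers was lower, beside 4.3% of all genes. Alternatives covered the pseudocount, TPM, quantile normalization, filters, TMM, DESeq2 1.42.0, unique fragments, orientation, leaving out each replicate and a replicate block.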

Additional observations from a re-analysis of the deposited data

How the results depend on the processing

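Of the alternative values of the 4 comparisons, 276 stayed within the spread of replicates or within 1.5 times the count, and 24 did not. These totals do not measure stability. Many of the 276 were counts of calls that were 0 in both fits, and some were log2 values that changed sign. Others stayed within a wide spread, such as an SD of 1.45 for trunc/+ over WT in the middle stretch. Values for single stretches, chosen after the data were seen, are included. Where no cause is named below, the cause was not tested. For bulk CRISPR over bulk control, quantile normalization gave a LINC-PINT log2 fold change of 0.19, and the log2 ratio of summed TE signal was -0.025 for copies in the LINC-PINT orientation, against 0.33 for all. Added after the data were seen, the RefSeq span alone gave 0.72 for the bulk cells, 0.97 for trunc/+ over WT and 0.73 for trunc/+ over -/+. The stretch beyond the RefSeq 3′ end gave -0.065, 2.55 and 2.64 in the same comparisons, the middle stretch 0.91 in the bulk cells and 1.20 for trunc/+ over -/+, and the stretch upstream of the internal start 0.62 for trunc/+ over WT and 0.31 for trunc/+ over -/+. For trunc/+ over -/+, DESeq2 called 1 LINC-PINT copy, among 4 of 40643 copies in all. The fit with no filter called 2, among 155 of 889062 copies in all, and the main fit 0.

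Leaving out each replicate in turn, LINC-PINT ranged from 0.26 to 0.54 in the bulk cells, 0.57 to 0.96 for trunc/+ over WT, -0.30 to 0.12 for -/+ over WT and 0.64 to 0.99 for trunc/+ over -/+. The MLT1F2 copy ranged from -1.25 to -0.80, 2.22 to 2.76, -0.57 to 0.33 and 2.21 to 3.11 in that order. The summed log2 ratio ranged from 0.17 to 0.49, 1.22 to 2.59, -0.40 to 0.98 and 1.44 to 1.83. Also chosen after the data were seen, leaving out replicates within single stretches moved the stretch from the internal start to the RefSeq 3′ end most, where the log2 ratio of trunc/+ over WT was 0.50 without WT replicate 1 and 3.52 without WT replicate 2, against 1.33, and that of -/+ over WT was -0.70 and 2.32, against 0.13. Beyond the RefSeq 3′ end, leaving out WT replicate 2 gave 3.18 and 0.53, against 2.55 and -0.09. Leaving out WT replicate 1 gave 2.11 and -0.53 there. In the bulk cells, calls ranged from 0 to 15 listed genes and from 0 to 2 LINC-PINT copies. Both were highest without bulk control replicate 1, where 1327 of 11904 genes and 871 of 33320 copies were called in all.

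The main fits treated samples as unpaired. Same-numbered deviations from group means correlated between -0.22 and 0.18 in the bulk cells and between -0.55 and 0.51 in the clones. Deviations within such small groups depend on each other, so these values cannot show whether replicate numbers pair samples. With a replicate block, LINC-PINT was at 0.42, 0.72, -0.15 and 0.87, the MLT1F2 copy at -1.02, 2.37, -0.26 and 2.63, and 6 listed or neighbouring genes were called in the bulk cells (COL5A1, CPA4, FAP, JARID2, LUM and MALAT1) among 220 genes. In the bulk comparison, 20, 26, 73 and 16 genes were called with a pseudocount of 0.1, TPM, quantile normalization and no filter, against 42, and the higher share was 25 of 73 with quantile normalization, against 23 of 42. Without a filter 42, 179, 61 and 155 TE copies were called. Depth limits single copies: 102 of the 369 were seen in 1 library.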

Other observations

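The other strand of the LINC-PINT span carried little TE signal. TE copies read from the plus strand summed to 1.34 ± 0.340 CPM in bulk CRISPR and 1.99 ± 0.551 CPM in bulk control. They summed to 1.28 ± 0.688 CPM in trunc/+, 1.28 ± 0.110 CPM in -/+ and 0.935 ± 0.914 CPM in WT (SD, n = 3, and n = 2 for WT). LINC00513, a noncoding RNA on that strand inside the span, had 0.571, 0.0995 and 0.569 FPKM in bulk CRISPR, against 1.40, 2.55 and 0.429 FPKM in bulk control, and at most 1.99 FPKM in any clone.

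Among the TE classes in LINC-PINT, LTR copies summed to 5.89 ± 0.622 CPM in bulk CRISPR and 9.80 ± 2.15 CPM in bulk control, with no overlap, but without the MLT1F2 copy the other 38 LTR copies summed to 2.45 ± 0.714 CPM in bulk CRISPR and 2.65 ± 0.321 CPM in bulk control, which overlapped. SINE copies summed to 21.8 ± 1.98 CPM in bulk CRISPR and 15.2 ± 2.68 CPM in bulk control, with no overlap. Their log2 ratio was 0.52, beside a median log2 fold change of 0.34 over all TE copies tested in that comparison. The MLT1F2 copy alone made up 5.37% to 8.55% of the TE signal of LINC-PINT in bulk CRISPR and 14.3% to 23.8% in bulk control. In the clones it made up 7.24% to 11.4% in trunc/+, 3.23% to 6.37% in -/+ and 4.16% and 8.98% in WT. LINE copies summed to 16.0 ± 1.68 CPM in trunc/+, 5.05 ± 2.38 CPM in -/+ and 3.96 ± 1.98 CPM in WT.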
